A study of Homo sapiens with 5 samples.

Results

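The genes described here make and modify fatty acids in PC9 cells, a human lung adenocarcinoma line that carries an activating EGFR deletion. They are the 10 rows of the deposited table whose symbol is SREBF1, SCD, FADS1, FADS2, ELOVL5, ELOVL6, FASN, ACACA, ACLY or ACSS2, out of 27477 rows in all, and all 10 had an adjusted p among the 15223 rows that did. RNA was sequenced from 2 samples of drug-tolerant PC9 cells and 3 samples of parental PC9 cells. The drug-tolerant cells had spent 6 days under 50 nM gefitinib, which blocks the EGFR kinase, before 3 days in growth medium for which no drug is stated. All 5 sample records carry the same treatment text, and the group is given by the sample title alone. Both groups are 1 cell line grown in RPMI medium with foetal bovine serum, so lipid was also supplied from outside the cells. The labels do not say whether the replicates were separate cultures, and p-values then measure only the spread between these samples, which may be technical.

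Cytosolic fatty acid synthesis starts from acetyl-CoA, which ACLY makes from citrate and ACSS2 makes from acetate. ACACA carboxylates it to malonyl-CoA, FASN builds palmitate from that, ELOVL6 lengthens palmitate, and SCD puts in the first double bond. ELOVL5, FADS1 and FADS2 lengthen and desaturate polyunsaturated fatty acids taken from the medium. SREBF1 encodes a membrane-bound transcription factor that is cut free when sterols are low and when insulin or growth factor signalling is high, and the other genes of the list are among its known targets.

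The deposited table holds a mean, a log2 fold change, a standard error and p-values for each gene, but no column per library. Whole reads per library were worked back from the digits of these columns, since few combinations of whole reads give all of them at once. A single combination was found for 9 of the 10 genes, and the exception, FASN, is described with its values. Libraries are named drug-tolerant a and b and parental a, b and c, because the worked-back reads carry no replicate number. Depth, estimated as the size factor times the summed means, was 20.4 M and 14.2 M counted reads in drug-tolerant a and b, against 21.4 M, 18.3 M and 17.3 M in parental a, b and c. Values below are normalised reads, which are reads divided by the library's size factor. Parental a stood apart from parental b and c. Over 3109 genes with a mean of at least 1000 normalised reads, the median absolute log2 difference was 0.52 between parental a and b and 0.14 between drug-tolerant a and parental a, against 0.06 between parental b and c and 0.05 between the 2 drug-tolerant libraries. Reads on transcripts over 4000 nt were 4.75 and 4.70 times those on transcripts under 2000 nt in drug-tolerant a and b, and 5.17, 2.15 and 2.07 times in parental a, b and c. Results on the 10 genes are therefore given against parental a and against parental b and c as well as against all of them. What set parental a apart was not tested. The 5 epithelial markers all had an adjusted p and none was called. Of those, on the log2 fold change scale, KRT8 had -0.11 (adjusted p = 0.84), KRT18 had -0.33 (adjusted p = 0.60), KRT19 had -0.56 (adjusted p = 0.47) and CDH1 had 0.40 (adjusted p = 0.52) in the authors' deposited table, where the mean of KRT8 was 35758 normalised reads. Of the lung adenocarcinoma markers, SFTPB had a mean of 10.4 normalised reads and 0.88 (log2 fold change, adjusted p = 0.45) in the authors' deposited table, NKX2-1 had a mean of 2.83 and NAPSA one of 2.33, so those defining markers were near 0 over the libraries. Of the markers of other cell types, COL1A1 of fibroblasts had 0.04 (adjusted p = 0.96), ITGAM of myeloid cells had -0.28 (adjusted p = 0.74), and the endothelial genes PECAM1 and CDH5 had 0.57 (adjusted p = 0.44) and 0.36 (adjusted p = 0.53), as log2 fold changes in the authors' deposited table. PECAM1 had 2192 and 1926 normalised reads in drug-tolerant a and b, against 1629, 1151 and 1181 in parental a, b and c. For both PECAM1 and CDH5 the drug-tolerant libraries were above every parental one, as in 19.9% of all tested genes with worked-back reads. VWF, the other endothelial gene of the list, had overlapping groups and no adjusted p. Its reads were 10 and 3 in drug-tolerant a and b, against 11, 4 and 7 in parental a, b and c. The part of these markers in the results was not tested.

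In the drug-tolerant cells, SCD was the 1 gene of the 10 called lower and none was called higher, at an adjusted p under 0.05 in the authors' deposited table. Over all 15223 genes tested, 0.289% were called lower and 0.263% higher. The values of SREBF1, FADS1, FADS2 and ELOVL6 were also below every parental library, but none passed the test. FASN, ACACA, ACLY, ELOVL5 and ACSS2 lay above parental b and c and below parental a. Over 14643 tested genes with worked-back reads, 16.3% were below every parental library. Of the same genes, 42.6% were above parental b and c, whatever their place against parental a. The median log2 fold change of the 10 genes was -0.11, and that of all tested genes was -0.02. With 2 libraries against 3, an exact two-sided rank-sum test of a single gene cannot go below p = 0.2. In bulk RNA, fewer cells that express a gene and less RNA per cell cannot be told apart.

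**Figure D1:**
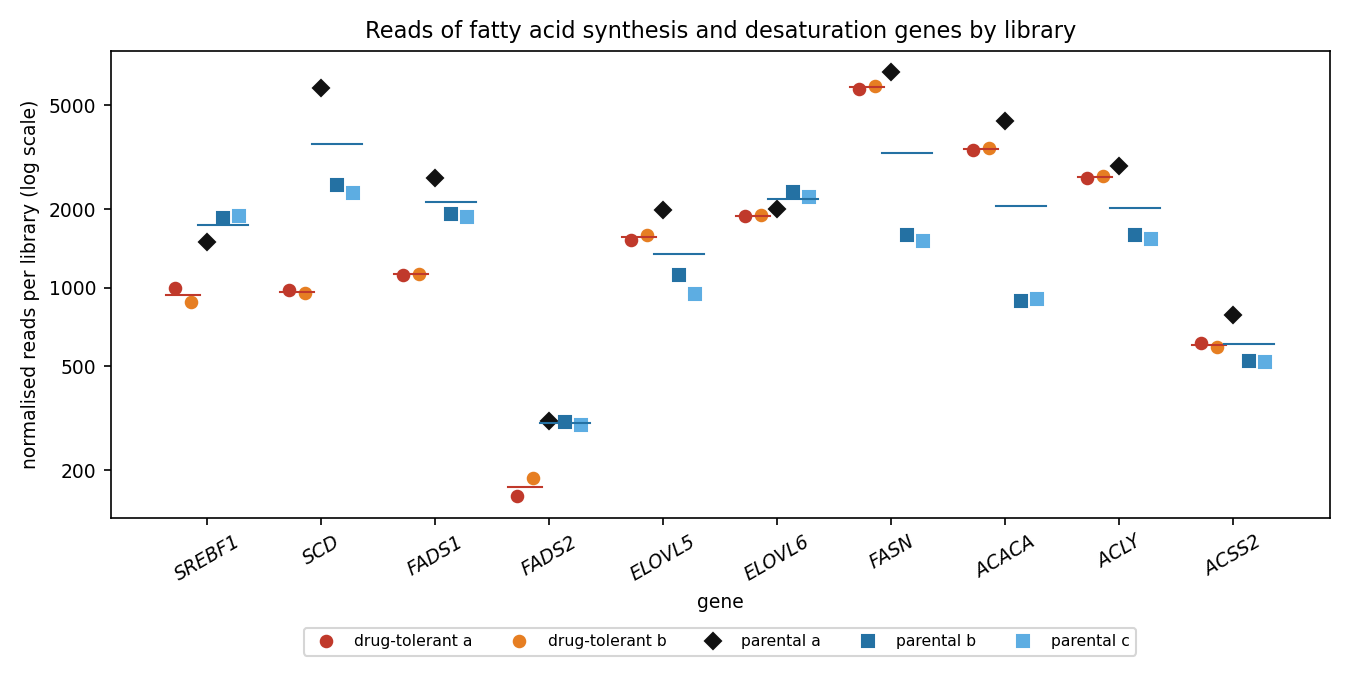
Normalised reads of each gene (log scale) in the 2 drug-tolerant libraries (circles) and the 3 parental libraries (diamond for parental a, squares for parental b and c), with lines at the group means. SCD lies at 976 and 951 in drug-tolerant libraries and at 5840.0, 2468 and 2312 in parental libraries, while FASN lies at 5778 and 5933 in drug-tolerant libraries and at 6700.45, 1590.2 and 1505 in parental libraries.

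SREBF1, on the minus strand of chromosome 17 (hg38 17810399 to 17837002), had 997 and 885 normalised reads in drug-tolerant a and b, against 1501, 1843 and 1876 in parental a, b and c. Both drug-tolerant libraries were below all 3 parental ones. Its mean was 941 ± 79.6 in drug-tolerant cells (SD, n = 2) and 1740 ± 208 in parental cells (SD, n = 3). The authors' deposited table gives SREBF1 -0.81 (log2 fold change, SE 0.23) at an adjusted p of 0.079, which missed the threshold. Parental a was the lowest of the parental libraries here, unlike in most of the list. The log2 ratio of drug-tolerant cells was -0.67 over parental a and -0.98 over the mean of parental b and c. MIR33B, a microRNA gene inside an intron of SREBF1 on the same strand, had 0 reads in both drug-tolerant libraries, against 2, 0 and 0 reads in parental a, b and c, which is too few to compare in a library of messenger RNA. RAI1, which overlaps SREBF1 on the opposite strand, stood at 0.55 (log2 fold change, adjusted p = 0.51) in the authors' deposited table and was not called. Its reads, not divided by the size factor, were 2001 and 1369 in drug-tolerant a and b. They were 2007, 780 and 723 in parental a, b and c, so parental a was far above parental b and c for RAI1.

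SCD encodes stearoyl-CoA desaturase, which makes oleate and palmitoleate, and it had the lowest adjusted p of the 10. It lies on the plus strand of chromosome 10 (hg38 100347124 to 100364834). Normalised reads were 976 and 951 in drug-tolerant a and b, against 5840.0, 2468 and 2312 in parental a, b and c. The drug-tolerant libraries were within a few percent of each other and below every parental library. Means were 964 ± 17.98 in drug-tolerant cells (SD, n = 2) and 3540 ± 1993 in parental cells (SD, n = 3), a 3.67-fold lower mean in drug-tolerant cells. SCD was 6.06-fold lower in drug-tolerant cells than in parental a and 2.48-fold lower than the mean of parental b and c. In the authors' deposited table SCD stands at -1.40 (log2 fold change, SE 0.35), adjusted p = 0.0242. That deposited value is smaller than the log2 ratio of the means, -1.88, because the authors' model pulls fold changes towards 0.

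FADS1 and FADS2 encode the delta-5 and delta-6 desaturases of polyunsaturated fatty acids and lie head to head on chromosome 11, FADS1 on the minus strand (hg38 61799625 to 61829318) inside the annotated span of FADS2 on the plus strand (61792980 to 61867354). FADS1 had 1121 and 1132 normalised reads in drug-tolerant a and b, against 2627, 1912 and 1867 in parental a, b and c. FADS2 had 159 and 186 in drug-tolerant a and b, against 308, 307 and 298 in parental a, b and c. For both genes the drug-tolerant libraries were the 2 lowest. FADS2 was nearly level over the 3 parental libraries, parental a included, with means of 173 ± 19.5 in drug-tolerant cells (SD, n = 2) and 304 ± 5.61 in parental cells (SD, n = 3). The authors' deposited table gives FADS1 -0.82 (log2 fold change, SE 0.25) at an adjusted p of 0.115. The authors' deposited table gives FADS2 -0.74 (log2 fold change, SE 0.25) at an adjusted p of 0.184, so neither was called. The libraries were made with a kit that keeps the strand, but the sources used here do not give the strand setting of the counting, so reads where the pair overlaps may have been shared between them. Per kilobase of transcript, FADS1 was 5.66 and 4.87 times FADS2 in drug-tolerant a and b, against 6.84, 5.001 and 5.03 times in parental a, b and c, and the groups overlapped. FEN1, a DNA repair nuclease gene that overlaps the start of the FADS2 span on the same strand, stood at -0.28 (log2 fold change, adjusted p = 0.60) in the authors' deposited table.

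The promoters of 3 of the 5 genes that were below all parental libraries (SREBF1, SCD and FADS1) are printed beside that of ACLY, which was not, because SREBP works at such promoters together with NF-Y, which binds CCAAT, and SP1, which binds GC boxes. Each run is the 250 bases before a start annotated by RefSeq (GRCh38.p14), 5′ to 3′ on the gene's strand. The gene spans given in the text are from GENCODE, and their ends differ from these starts. The windows of FADS1 and ACLY lie inside those spans, and those of SREBF1 and SCD overlap them in part. Starts elsewhere in these genes may thus have other promoters. Capitals mark CCAAT and GGGCGG on either strand. The SREBF1 window is chr17:17836987-17837236, that of SCD is chr10:100346983-100347232, that of FADS1 is chr11:61817004-61817253 and that of ACLY is chr17:41919023-41919272.
SREBF1: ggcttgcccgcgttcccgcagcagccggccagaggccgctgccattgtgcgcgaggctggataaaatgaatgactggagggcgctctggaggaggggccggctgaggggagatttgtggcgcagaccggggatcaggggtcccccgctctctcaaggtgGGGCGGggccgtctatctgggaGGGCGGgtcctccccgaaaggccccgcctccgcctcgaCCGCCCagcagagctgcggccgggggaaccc
SCD: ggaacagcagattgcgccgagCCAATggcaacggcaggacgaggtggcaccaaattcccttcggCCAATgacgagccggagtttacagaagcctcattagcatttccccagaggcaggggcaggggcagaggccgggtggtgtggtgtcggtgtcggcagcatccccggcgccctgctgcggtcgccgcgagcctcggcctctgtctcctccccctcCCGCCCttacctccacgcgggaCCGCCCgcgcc
FADS1: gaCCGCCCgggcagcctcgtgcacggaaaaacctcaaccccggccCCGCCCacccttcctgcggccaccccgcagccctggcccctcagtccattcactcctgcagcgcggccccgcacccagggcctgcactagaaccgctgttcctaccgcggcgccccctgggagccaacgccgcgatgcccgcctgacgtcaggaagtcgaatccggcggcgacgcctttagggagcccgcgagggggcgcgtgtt
ACLY: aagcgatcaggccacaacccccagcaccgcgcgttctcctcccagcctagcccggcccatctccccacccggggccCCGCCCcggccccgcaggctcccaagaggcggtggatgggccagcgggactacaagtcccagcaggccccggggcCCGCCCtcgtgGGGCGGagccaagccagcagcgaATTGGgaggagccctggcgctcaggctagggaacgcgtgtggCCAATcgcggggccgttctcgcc
RefSeq windows were found for 9 of the 10 genes, 14 windows in all because some genes have several starts. The sterol element core TCACNCCAC, searched on both strands, was in 0.883% of 35116 windows of this length and in 0 of the 14. CCAAT was in 32.0% of all windows and in 7 of the 14, which belong to 5 of the 9 genes, with none in the windows of SREBF1, FADS1, FADS2 and ELOVL6. The GC box GGGCGG was in 42.6% of all windows and in 11 of the 14, which belong to 8 of the 9 genes. The 2 windows of ACLY overlap, as do the 2 of FADS2, so sites in the shared stretch are counted in both. The E-box CACGTG was in 6.34% of all windows and in 1 of the 14, that of ELOVL5. These motifs do not overlap one another in the printed runs, although copies of GGGCGG can overlap each other elsewhere. A match here is a string of letters, and ACLY, which was not below every parental library, holds both CCAAT and the GC box, as SCD does.

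Neither of the 2 elongases was called. ELOVL6, on chromosome 4 (minus strand, hg38 110045846 to 110199199), lengthens palmitate to stearate, the substrate of SCD. It had 1884 and 1891 normalised reads in drug-tolerant a and b, against 2009.6, 2332 and 2231 in parental a, b and c. The drug-tolerant libraries were lowest, but by little, since the mean was 1.16-fold lower in drug-tolerant cells. The authors' deposited table gives ELOVL6 -0.20 (log2 fold change, SE 0.21) at an adjusted p of 0.65. ELOVL5, on chromosome 6 (minus strand, hg38 53267398 to 53349179), lengthens polyunsaturated fatty acids. It had 1527 and 1587 normalised reads in drug-tolerant a and b, against 1982, 1122 and 946 in parental a, b and c. The drug-tolerant libraries lay under parental a and over parental b and c, so the groups overlapped. ELOVL5 stands at 0.17 (log2 fold change, SE 0.32) in the authors' deposited table, adjusted p = 0.81.

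The 4 enzymes that make acetyl-CoA and turn it into palmitate were not called either. FASN, on chromosome 17 (minus strand, hg38 82078333 to 82098332), had 5778 and 5933 normalised reads in drug-tolerant a and b, against 6700.45, 1590.2 and 1505 in parental a, b and c. Parental a and the drug-tolerant libraries were together, and parental b and c were far below. For FASN, 3 sets of whole reads matched the table. The set given is the only one of them whose pairs parental b and c (absolute log2 ratio 0.08) and drug-tolerant a and b (0.04) differed by no more than 99% of 3089 other genes did (up to 0.27 and 0.25), and in the other sets the drug-tolerant pair differed by 1.86 and 2.09. The group means were nearly the same in all 3 sets, at 5855 in drug-tolerant cells and 3265 to 3266 in parental cells, and the groups overlapped in each. Where single libraries lie differs between the sets, since drug-tolerant a and b had 9187 and 2523 or 9485 and 2225 normalised reads in the other sets, with drug-tolerant a above every parental library. Each statement on FASN by library, here and below, rests on the set given. The authors' deposited table gives FASN 0.52 (log2 fold change, SE 0.40) at an adjusted p of 0.55.

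ACACA, the rate-limiting acetyl-CoA carboxylase (chromosome 17, minus strand, hg38 37084988 to 37406818), had 3363 and 3428 normalised reads in drug-tolerant a and b, against 4365, 887 and 908 in parental a, b and c. Parental a was 4.86-fold above the mean of parental b and c, and the drug-tolerant libraries were near parental a. The authors' deposited table gives ACACA 0.43 (log2 fold change, SE 0.40) at an adjusted p of 0.61. ACLY (chromosome 17, minus strand, hg38 41866908 to 41930542) had 2636 and 2676 normalised reads in drug-tolerant a and b, against 2915, 1591 and 1530.2 in parental a, b and c. ACLY stands at 0.33 (log2 fold change, SE 0.31) in the authors' deposited table, adjusted p = 0.62. ACSS2 (chromosome 20, plus strand, hg38 34872146 to 34927962) had 615 and 592 normalised reads in drug-tolerant a and b, against 788, 524 and 518 in parental a, b and c. It was the gene nearest to no difference, at -0.01 (log2 fold change, SE 0.28, adjusted p = 0.98) in the authors' deposited table.

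Set against parental a alone, both drug-tolerant libraries were lower for all 10 genes, where 37.4% of 14643 tested genes with worked-back reads were. The log2 ratios over parental a were -2.60 for SCD, -1.22 for FADS1, -0.84 for FADS2, -0.67 for SREBF1, -0.39 for ACSS2, -0.36 for ACACA, -0.35 for ELOVL5, -0.19 for FASN, -0.13 for ACLY and -0.09 for ELOVL6. Their median was -0.37, and that of all those genes was 0.03. Set against parental b and c, both drug-tolerant libraries were lower for 5 genes and higher for the other 5, where 43.3% and 42.6% of the tested genes were. Against parental b and c the log2 ratios were 1.92 for FASN, 1.92 for ACACA, 0.77 for ACLY, 0.59 for ELOVL5 and 0.21 for ACSS2, and they were -0.27 for ELOVL6, -0.75 for FADS1, -0.81 for FADS2, -0.98 for SREBF1 and -1.31 for SCD. SREBF1, SCD, FADS1, FADS2 and ELOVL6 thus had groups that did not overlap, all lower in drug-tolerant cells, where 16.3% of tested genes did so in that direction.

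**Figure D2:**
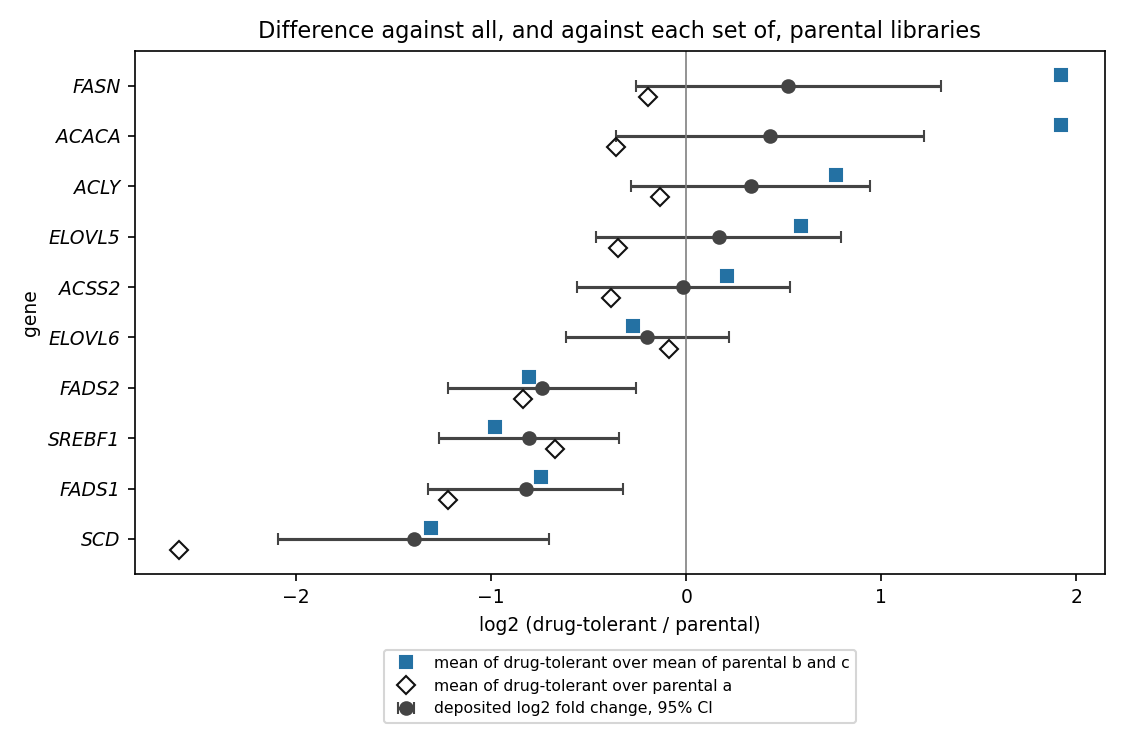
The deposited log2 fold change of each gene with its 95% confidence interval (circles), beside the log2 ratio of mean normalised reads in drug-tolerant libraries over parental b and c (squares) and over parental a (diamonds). The 2 ratios have opposite signs for FASN, ACACA, ACLY, ELOVL5 and ACSS2 and are both negative for the other 5 genes.

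When the authors' model was refitted without parental a, 3 of the 10 genes were called lower and 3 higher, against a background of 11.0% lower and 14.9% higher over 14643 genes. In that fit SCD fell by 1.17 on the log2 scale (adjusted p = 8.89e-05), SREBF1 by 0.87 (adjusted p = 0.00564) and FADS1 by 0.67 (adjusted p = 0.0357) in drug-tolerant cells. FASN was higher by 1.72 (adjusted p = 6.9e-10), ACACA by 1.72 (adjusted p = 8.79e-10) and ACLY by 0.69 (adjusted p = 0.0286). The fit without parental a was chosen after seeing the data and drops the parental library that stood apart. Its p-values thus measure the spread within pairs of libraries that were close to each other, which may be technical. With all libraries the adjusted p of FASN, ACACA and ACLY was 0.55, 0.61 and 0.62 by the authors' Wald test. When parental a was instead the only control, SCD was the 1 gene of the list that passed, with a log2 fold change of -2.10 (adjusted p = 1.88e-06). With 1 control library, only the 2 drug-tolerant libraries add spread in that fit, and the lone parental library is assumed to vary like them. In this fit and in that without parental a, each gene's spread was also drawn towards a trend held from the fit to all libraries. With parental a as the only control, the values of FASN, ACACA, ACLY and ELOVL5 turned negative, at -0.16, -0.29, -0.11 and -0.28. That fit called 0.0205% of genes lower and 0.0273% higher. By the reads, SCD was below every parental library in both drug-tolerant libraries, while the direction for FASN, ACACA, ACLY, ELOVL5 and ACSS2 depended on which parental library was the control.

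Ratios between genes within a library do not depend on its depth, but they can move with transcript length where libraries differ by length. Dividing by length does not remove such a difference. For genes about as long as SCD the median log2 ratio of parental a over parental b and c was 0.37. For genes about as long as FASN and ACACA it was 1.06. The part of length in the ratios below was not tested. These ratios were chosen after the values had been seen and are given with no test. Per kilobase of transcript, SCD was 0.27 and 0.26 times FASN in drug-tolerant a and b, against 1.39, 2.48 and 2.45 times in parental a, b and c. The desaturases SCD, FADS1 and FADS2 summed to 0.29 times ACLY, ACACA and FASN in each drug-tolerant library, against 0.93, 1.51 and 1.49 times in parental a, b and c. Both ratios were below every parental library. FASN was 1.998 and 2.01 times ACACA in drug-tolerant a and b, against 1.79, 2.08 and 1.93 times in parental a, b and c, so this pair kept nearly the same proportion in all 5 libraries, also in parental a. FASN per ACLY was 1.11 and 1.12 in drug-tolerant a and b, against 1.16, 0.51 and 0.50 in parental a, b and c.

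Transcript length moved with these values. Over 12449 tested protein-coding genes, the Spearman correlation across genes between deposited log2 fold change and length of the longest transcript was 0.54, with genes not independent replicates. In the longest of 10 length bins the median log2 ratio of drug-tolerant libraries was -0.05 over parental a and 0.94 over parental b and c. FASN (8565 nt) and ACACA (9961 nt) belong to that bin, and each stood 0.98 from its median against parental b and c. SCD (5362 nt) stood -1.67 from the median of its bin against parental b and c and -2.61 against parental a. In those comparisons SREBF1 stood -1.20 and -0.68 from its bin, FADS1 -0.96 and -1.23, FADS2 -0.86 and -0.86, and ELOVL6 -0.87 and -0.06. With a trend on length and GC content removed over protein-coding genes, 32 genes of the whole table were called lower and 38 higher, and SREBF1 (-0.92, adjusted p = 0.0221) and FADS1 (-0.94, adjusted p = 0.0405) passed the threshold beside SCD (-1.57, adjusted p = 0.00404). The part of length in the differences was not tested further.

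**Figure D3:**
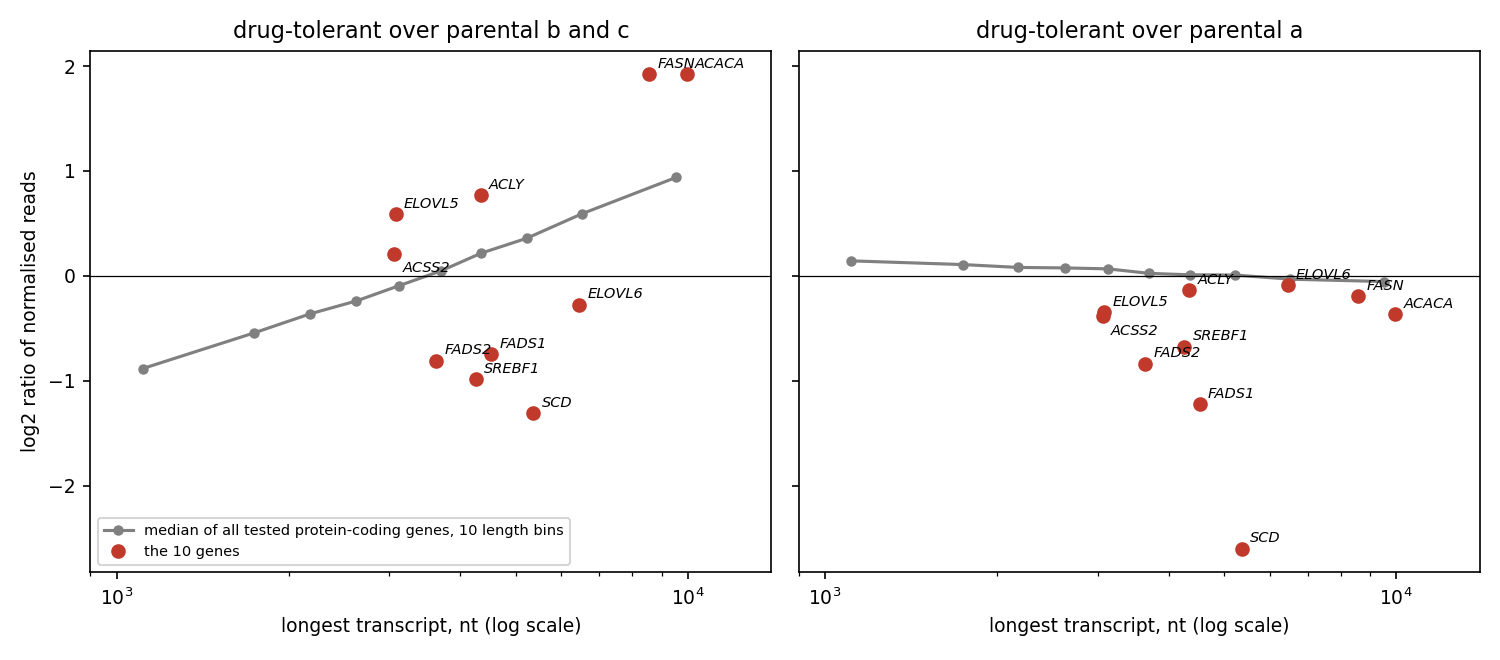
Log2 ratio of mean normalised reads in drug-tolerant libraries over parental b and c (left) and over parental a (right) against the length of the longest transcript (log scale), for the 10 genes (red) and as medians of all tested protein-coding genes in 10 length bins (grey). The grey medians run to 0.94 in the longest bin on the left and to -0.05 on the right. SCD, SREBF1, FADS1, FADS2 and ELOVL6 lie below the grey line in both, ELOVL6 by little on the right.

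Levels between genes are compared as mean normalised reads per kilobase of the longest transcript. In drug-tolerant cells the order was FASN (684 ± 12.8), ACLY (612 ± 6.56), ELOVL5 (505 ± 13.7), ACACA (341 ± 4.64), ELOVL6 (292 ± 0.85), FADS1 (248.9 ± 1.76), SREBF1 (221 ± 18.7), ACSS2 (197 ± 5.22), SCD (179.7 ± 3.35) and FADS2 (47.5 ± 5.38), as mean ± SD of 2 libraries. In parental cells SCD was first, at 660.2 ± 372, followed by FADS1 (472 ± 94.3), ACLY (464 ± 180.3), ELOVL5 (438 ± 179.9), SREBF1 (409 ± 48.8), FASN (381 ± 347), ELOVL6 (339 ± 25.6), ACACA (206 ± 201), ACSS2 (199 ± 50.3) and FADS2 (83.8 ± 1.55), as mean ± SD of 3 libraries. By library, SCD was the ninth of the 10 in both drug-tolerant libraries, and it was the first in parental a (1089) and b (460.2) and came after SREBF1 in parental c (431 against 441). FASN was the first in both drug-tolerant libraries, at 675 and 693, against 782, 186 and 176 in parental a, b and c. Among parental cells, the SD of most genes spans their neighbours in this order. FADS2 had the lowest level in both groups.

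Of the genes around the pathway, INSIG1 was the 1 called, and it fell. INSIG1 encodes the endoplasmic reticulum protein that holds back SREBP when sterols are present and is itself a known SREBP target. It had 155 and 159.7 normalised reads in drug-tolerant a and b, against 1043, 529.7 and 537 in parental a, b and c. The authors' deposited table gives INSIG1 -1.71 (log2 fold change, SE 0.33) at an adjusted p of 0.000355. Its drug-tolerant libraries were below all parental ones, and the highest parental library was parental a, as for SCD. The rest of the 11 tested SREBP processing genes were not called. Of them, on the log2 fold change scale, INSIG2 had -0.61 (adjusted p = 0.38), PGRMC1 had -0.54 (adjusted p = 0.47) and SREBF2, the paralogue that mainly serves cholesterol synthesis, had -0.44 (adjusted p = 0.53) in the authors' deposited table. The median of that list was -0.30, against -0.02 for all tested genes. By the worked-back reads its median log2 ratio was -0.05 over parental a and -0.19 over parental b and c. The medians of all tested genes with such reads were 0.03 and -0.01. In the same comparisons INSIG2 had -0.37 and -0.82, PGRMC1 had -0.09 and -0.85, and SREBF2 had -1.02 and -0.19.

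None of the 96 tested genes of the other 7 lists was called by the authors' DESeq2 test, and 11 of them (11.5%) had an unadjusted p under 0.05, against 10.8% of all tested genes. Among 16 tested genes of other fatty acid synthesis, elongation and desaturation the median log2 fold change was -0.14, and 6 had groups that did not overlap, all lower in drug-tolerant cells, where 16.3% of all tested genes did so in that direction and 19.9% in the other. Among them were MECR of mitochondrial fatty acid synthesis (-0.64, adjusted p = 0.45) and FADS3 (-0.32, adjusted p = 0.56), in the authors' deposited table. TECR, of the elongation cycle, had -0.61 (adjusted p = 0.47), with a log2 ratio of 0.00053 over parental a and -1.01 over parental b and c, and ACACB, the carboxylase at the mitochondrial surface, had 0.54 (adjusted p = 0.52) in the authors' deposited table. Among 6 tested genes of acetyl-CoA and NADPH supply the median was -0.02, with the citrate carrier SLC25A1 at -0.58 (adjusted p = 0.45), the mitochondrial acetyl-CoA synthetase ACSS1 at 0.60 (adjusted p = 0.49), PGD at -0.04 (adjusted p = 0.93) and malic enzyme ME1 at 0.04 (adjusted p = 0.93), per the authors' deposited table. Among 13 transcription factors of lipogenic genes the median was 0.03. PPARGC1B, whose log2 ratio was 0.23 over parental a and 2.46 over parental b and c, had 0.75 (adjusted p = 0.47), NFYA had 0.48 (adjusted p = 0.51), NR1H3, which encodes LXR alpha, had -0.37 (adjusted p = 0.53) and USF2 had -0.39 (adjusted p = 0.55), per the authors' deposited table. Among 5 LXR targets, the sterol exporter ABCG1 had -1.25 (adjusted p = 0.073) and ABCA1, of the same class, had 0.55 (adjusted p = 0.49), with MYLIP at -0.40 (adjusted p = 0.51) and LPCAT3 at 0.30 (adjusted p = 0.57), per the authors' deposited table.

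Genes that use fatty acids were also not called. Among 24 tested genes of fatty acid oxidation, 9 had groups that did not overlap with drug-tolerant cells higher and 2 with drug-tolerant cells lower, where 19.9% and 16.3% of all tested genes did so. CPT1A, the gatekeeper of mitochondrial import, had 1407 and 1519 normalised reads in drug-tolerant a and b, against 1086, 543 and 573 in parental a, b and c. Both drug-tolerant libraries were above all parental ones, but the authors' deposited table gives CPT1A 0.81 (log2 fold change) at an adjusted p of 0.37. SLC25A20, the carnitine carrier of the same import step, had 0.66 (adjusted p = 0.38), PDK4 had 0.58 (adjusted p = 0.49) and ECI2 had -0.47 (adjusted p = 0.50), per the authors' deposited table. Among 26 tested genes of fatty acid activation and glycerolipid assembly, 8 had drug-tolerant libraries above and 3 below all parental ones, against the same 19.9% and 16.3%. ACSL3 had -0.53 (adjusted p = 0.36), ACSL5 had 0.45 (adjusted p = 0.46), LPCAT1 had 0.42 (adjusted p = 0.46) and the lipid droplet gene PLIN4 had 0.94 (adjusted p = 0.37), per the authors' deposited table. Among 7 tested genes of fatty acid uptake and binding, DBI, the acyl-CoA binding protein, had -0.72 (adjusted p = 0.34), SLC27A4 had 0.55 (adjusted p = 0.44), SLC27A5 had -0.52 (adjusted p = 0.53) and FABP5 had -0.45 (adjusted p = 0.53), per the authors' deposited table.

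**Figure D4:**
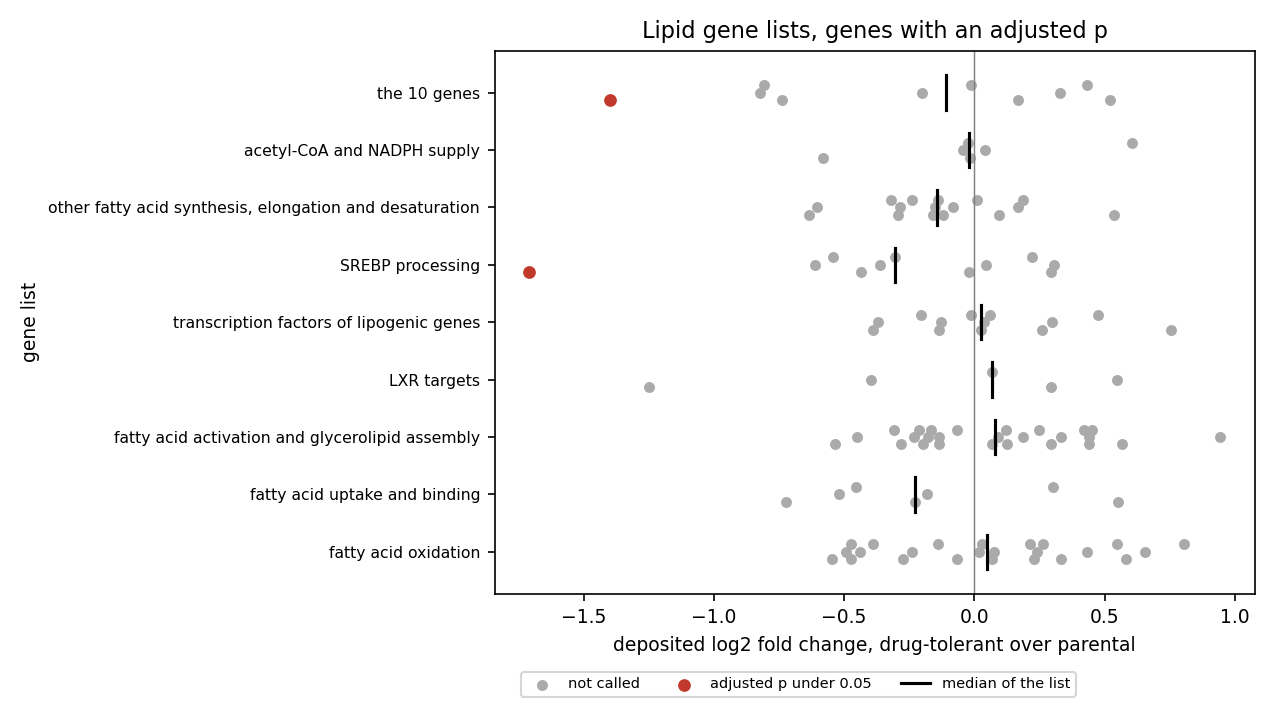
Deposited log2 fold changes, drug-tolerant over parental, of the tested genes of each lipid gene list, with called genes in red and the list's median as a black line. SCD at -1.40 and INSIG1 at -1.71 are the called genes, and the medians of the lists run between -0.30 and 0.08.

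Some relatives of these genes had hardly any reads. ELOVL3 had 0 and 3 reads in drug-tolerant a and b, against 6, 3 and 6 in parental a, b and c. ELOVL2 had 6 and 2 reads in drug-tolerant a and b, against 9, 1 and 1 in parental a, b and c. MLXIPL, which encodes the glucose-responsive lipogenic factor ChREBP, had 4 and 7 reads in drug-tolerant a and b, against 16, 2 and 3 in parental a, b and c. The fatty acid transporter CD36 had 1 and 2 reads in drug-tolerant a and b, against 3, 0 and 1 in parental a, b and c, and lipoprotein lipase LPL had 5 and 3 reads in drug-tolerant a and b, against 6, 0 and 0 in parental a, b and c. For each of these the groups overlapped or the counts were too few to show a difference at this depth.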

How the data were processed

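Messenger RNA of 2 drug-tolerant and 3 parental PC9 samples was sequenced from stranded libraries, per the labels' protocols. The submitters' processing notes name FastQC, STAR, DESeq2 and the build hg38; the tool and strand setting of the counting are not stated there. The deposited table holds a mean normalised count signal per gene, a log2 fold change with its standard error (drug-tolerant over parental), a Wald score and p-values, raw and adjusted, as the authors computed them. The main test is the authors' Wald test at an adjusted p under 0.05.

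Reads per library were worked back from the deposited digits: size factors from 12705 genes with a mean under 10, then the model's prior and dispersion trend, then a search for whole reads that give the mean, the fold change (within 5e-09), the standard error and the dispersion at once. This gave reads for 14643 of 15223 tested genes (96.2%). Genes with a mean over 8000 were not searched. The steps were tested on simulated data. Refitting the rebuilt model to these reads gave the deposited log2 fold change within 0.001 for 99.8% of genes. The refits use a negative binomial model written here after the authors' fit, not their tool. In each refit the size factors, the prior and the dispersion trend were held at the values from all libraries, parental a included. The reads are worked-back values, and single genes among them may be wrong.

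Alternatives were the authors' table under other thresholds, filters and corrections, refits without each library, and limma voom 3.58.1 (R 4.3.3). The refits, limma voom, parental a alone as control and parental b and c summed as 1 library were chosen after seeing the data. Parental b and c differed by 4.41 chi-square per degree of freedom over 3109 genes and drug-tolerant a and b by 5.70. Each pair thus differed by more than the sampling of reads alone gives. This cannot decide whether a pair came from separate libraries, because sequencing runs of a single library may differ too. Lengths and positions are from GENCODE 29 and promoters from RefSeq. The members and gene lists were chosen with earlier results of these data known. From each list the text names every called gene and up to 4 with the smallest deposited p among those with a mean of at least 10. Besides these it names genes that overlap a member, and relatives and markers with few reads.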

Additional observations from a re-analysis of the deposited data

How the results depend on the processing

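No paired analysis was possible because the deposited table has no column per library and the worked-back libraries carry no replicate number. SCD kept its direction in every alternative, and its call under no filter on low counts, a mean of at least 50, the median subtracted, parental b and c summed, and the length and GC trend removed. With parental a alone the log2 fold change of SCD was -2.10, in a fit with 1 control library. SCD lost its call at an adjusted p under 0.01 (-1.40), with the score centred and scaled (-1.38, adjusted p = 0.97) and with limma voom (-1.77, adjusted p = 0.42), and 0 genes of the list were then called. With the length and GC trend removed 3 were called lower, SREBF1 (-0.92), FADS1 (-0.94) and SCD, where 32 genes of the whole table were. Among the other alternatives, SREBF1 and FADS1 passed the threshold only without parental a. ACSS2, near 0, turned positive with the score centred (0.0030), the trend removed (0.0241), the median subtracted (0.0038) and limma voom (0.0112). With parental a alone, FASN (-0.16), ACACA (-0.29), ACLY (-0.11) and ELOVL5 (-0.28) turned negative.

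Leaving out each library in turn with the rebuilt model gave SCD -1.55 to -1.09, SREBF1 -0.87 to -0.67, FADS1 -0.87 to -0.67, FADS2 -0.77 to -0.58, ELOVL6 -0.24 to -0.15, ELOVL5 0.0036 to 0.52, FASN 0.31 to 1.72, ACACA 0.22 to 1.72, ACLY 0.19 to 0.69 and ACSS2 -0.10 to 0.19. SCD missed the threshold without drug-tolerant a (adjusted p = 0.93) or drug-tolerant b (adjusted p = 0.93), where the lone drug-tolerant library is assumed to vary like the parental ones. Between 0 and 3 genes of the list were called lower and between 0 and 3 higher, with 3 and 3 reached only without parental a.

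Among all tested genes, 44 were called lower and 40 higher. These counts were 14 and 25 at an adjusted p under 0.01, 26 lower with no filter on low counts, 32 and 38 with values corrected for length and GC, 0 and 1 with the score centred and scaled, 3 and 4 with parental a alone, 7 and 12 with parental b and c summed, and 0 and 0 with limma voom, where 1561 genes had an unadjusted p under 0.05. Leaving out each library gave 1 to 1611 lower and 2 to 2178 higher, the highest without parental a. Summed reads of relatives with a mean under 10 were 1.11 times as high in drug-tolerant as in parental libraries, and 0.89 to 1.68 with each library left out, the highest without parental a. Depth limits what can be said of those relatives, and the causes of these shifts were not tested.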
